A study of Homo sapiens with 6 samples.

Results

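The mitochondrial ribosomal protein genes encode the protein components of the ribosome that works inside mitochondria. They were taken as every row of the deposited expression table whose symbol is MRPL or MRPS followed by a number and at most 1 letter, which leaves out their pseudogenes. The rule used names only and no measured value. It found 78 of 30735 genes, 49 named for the large subunit (MRPL) and 29 named for the small subunit (MRPS).

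The mitochondrial ribosome translates the few messenger RNAs of the mitochondrial genome, all of which encode membrane proteins of the respiratory chain and ATP synthase. Its ribosomal RNAs are transcribed inside the organelle, whereas all of its proteins are encoded in the nucleus, made in the cytosol and imported. Some of these proteins have counterparts in every ribosome, some only in bacterial ribosomes, and the rest are found only in mitochondria.

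Polyadenylated RNA was sequenced from SET-2, an established human megakaryoblastic leukaemia line with a mutant JAK2 that serves as a model of the myeloproliferative neoplasms. One group was 3 libraries of SET-2 cells labelled as placebo, called control here, and the other was 3 libraries of SET-2 cells treated with CPL. The labels do not spell out CPL, its dose or the time of treatment. Senescence and NF-κB signalling are named in the title of the series, and mitochondrial translation is not. All 6 libraries came from 1 cell line, and nothing states that the replicates were separate cultures, so a p-value here speaks for the scatter among these libraries alone, and that scatter may be technical.

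Values were FPKM, fragments scaled to exon length and library total, and stood for 14647926 to 18239563 reads per library. Markers of the megakaryocyte and erythroid lineages were present in all libraries, with ITGA2B (the platelet integrin alpha chain) at 150 to 227 FPKM and GATA1 at 111 to 171 FPKM. The T cell gene CD3E did not exceed 0.0435 FPKM. The monocyte genes CD14 and CSF1R did not exceed 0.342 and 0.344 FPKM, while LYZ, which monocytes also express, was at 39.6 to 46.0 FPKM. CPL replicate 1 stood apart in how its values followed GC content, the share of G and C bases in a gene's longest transcript. Its change against the control mean had a Spearman correlation with GC content of 0.67 over all tested genes, against 0.21 and -0.15 in CPL replicates 2 and 3. All changes were therefore also computed without this library and after removal of a GC trend from every library. FPKM divides by the library total, and in bulk RNA fewer cells of a type and less RNA per cell cannot be told apart.

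In control cells the mitochondrial ribosomal protein genes together held 1927 ± 67.7 FPKM (SD, n = 3), which was 0.638% ± 0.027 of all FPKM. The most abundant was MRPL37, a protein specific to mitochondrial ribosomes, at 97.1 ± 6.32 FPKM. It was followed by MRPL3, whose bacterial counterpart lies near the peptidyl transferase centre, at 72.3 ± 3.14 FPKM. MRPS34, MRPL51, MRPL45, MRPS35, MRPL47 and MRPL15 had control means between 55.1 and 66.2 FPKM, and these neighbours lie within the spread of the replicates of MRPL51, whose SD was 11.8. MRPL45, which places the ribosome at the inner membrane near the exit tunnel, was at 59.3 FPKM. At the other end, the lowest tested MRPL genes were MRPL38 with 1.23 FPKM (45 to 122 reads) and MRPL53 with 2.38 FPKM, and the lowest tested MRPS genes were MRPS33 with 2.86 FPKM and MRPS17 with 3.99 FPKM. MRPS24 was the single gene under the expression filter of 1 FPKM in at least 3 libraries, at 0.05 to 0.21 FPKM (2 to 10 reads), so 77 genes were tested.

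**Figure D1:**
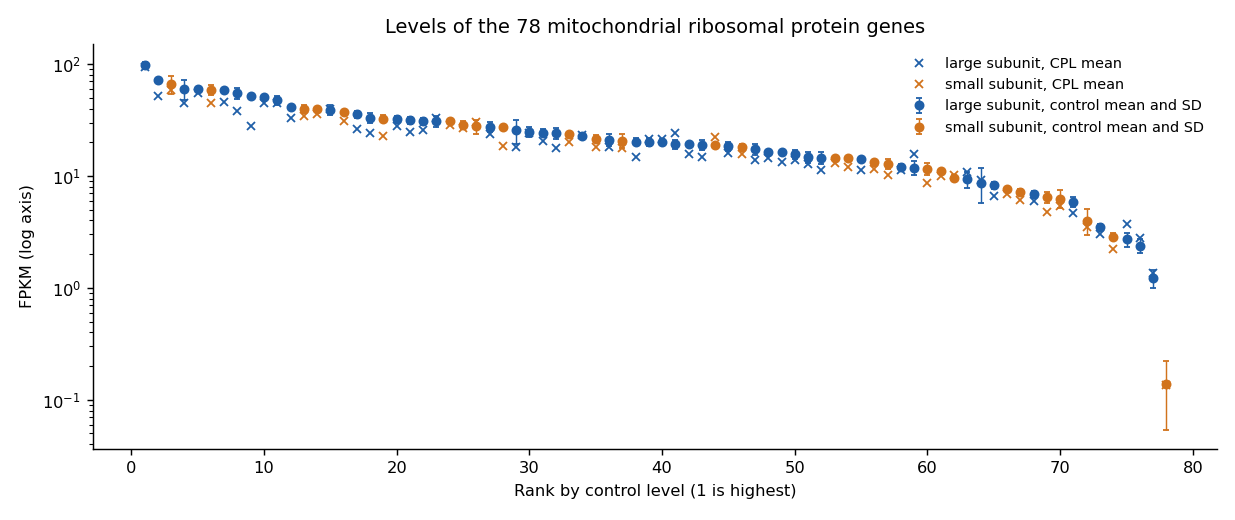
Levels of the mitochondrial ribosomal protein genes in FPKM on a log axis, by rank of control level, with circles for the control mean and bars for its SD (n = 3), crosses for the CPL mean, blue for MRPL and orange for MRPS genes. The genes span from MRPL37 at 97.1 FPKM down to MRPS24 at 0.05 to 0.21 FPKM.

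The genes lie on 21 chromosomes, with 8 each on chromosomes 1, 2 and 17. GC content ran from 33.5% to 71.9% with a median of 47.7%, near the 47.6% of all tested genes. The median was 50.7% for large subunit genes and 46.8% for small subunit genes. Merged exon length was shorter than usual, with a median of 2539 bases against 4253 for all tested genes. Exon bases are shared with another gene in 41 of the 78, and 16 share at least 20% of them, so their reads could have been split between neighbours. The largest share was 68.2%, between MRPL12 and AC139530.2. MRPS24 shares 23.2% of its exon bases with the readthrough gene URGCP-MRPS24. Neither AC139530.2 nor URGCP-MRPS24 has a row among the deposited values, so their levels are not known. A further 23 rows are named after these genes, namely pseudogenes and the divergent transcript MRPS30-DT. The highest of them, MRPL45P2, was at 5.65 FPKM in control cells and 4.11 FPKM in CPL cells.

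After CPL, most mitochondrial ribosomal protein genes lay slightly below control, with medians near each other in both subunits before any correction for GC content. Of the 77 tested, 65 had a negative log2 change, which is 84.4% against 50.8% of all 13092 tested genes. Their median log2 change was -0.21, with quartiles at -0.30 and -0.12, while the median of all tested genes was -0.01. In limma with Benjamini-Hochberg adjustment over all tested genes, 1 gene, MRPL1, passed as lower against a background of 0.665% of tested genes, and 0 passed as higher against 1.09%. At an unadjusted p under 0.05, limma gave 24 lower, where 10% of all tested genes were lower, and 0 higher, where 9.54% were higher. In 34 of the 77 (44.2%) every CPL library lay below every control library, which held for 14.9% of tested genes. In 0 of the 77 did every CPL library lie above every control library, which held for 14.1% of tested genes.

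The summed FPKM of the mitochondrial ribosomal protein genes was 1926, 1860 and 1995 in control replicates 1, 2 and 3, and 1748, 1657 and 1554 in CPL replicates 1, 2 and 3. The groups did not overlap, and the sum in each CPL library was below the lowest control. The CPL mean was 1653 ± 97.3 FPKM (SD, n = 3), or 0.545% ± 0.031 of all FPKM. The sum over MRPL genes went from 1315 ± 59.5 to 1124 ± 57.0 FPKM and the sum over MRPS genes from 613 ± 9.55 to 529 ± 41.2 FPKM. For comparison, the cytosolic ribosomal protein genes, which encode the proteins of the ribosomes outside mitochondria, summed to 17876 ± 1304 FPKM in control and 16941 ± 2200 FPKM in CPL cells. The transcripts of the mitochondrial genome summed to 83438 ± 10866 and 82974 ± 10927 FPKM. For both of these sums the difference was smaller than the spread between replicates. The cytosolic sum was 19094, 17033 and 14696 FPKM in CPL replicates 1, 2 and 3. Gene by gene, 60 of the 82 tested cytosolic ribosomal protein genes had a negative log2 change, and 80 of 82 without CPL replicate 1.

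**Figure D2:**
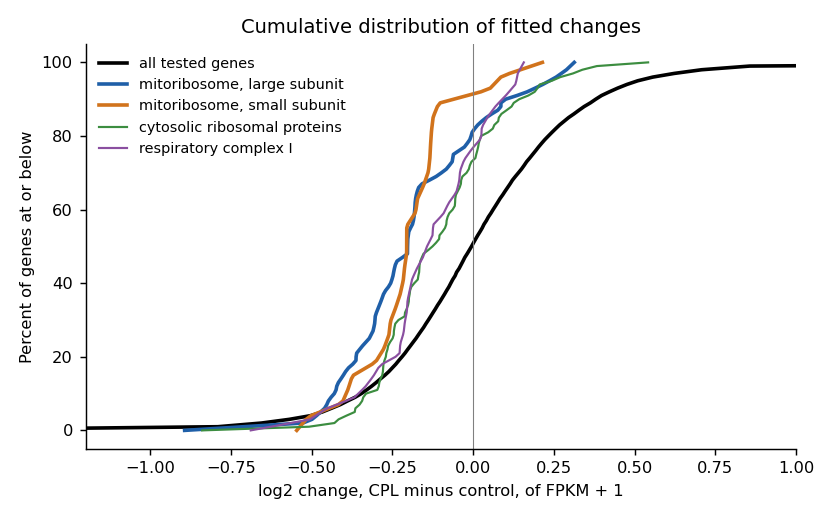
Percent of genes at or below each log2 change (CPL minus control, on the log2(FPKM + 1) scale) for large subunit genes, small subunit genes, cytosolic ribosomal protein genes, complex I genes and all tested genes. At a change of 0 the curves of both mitochondrial subunits lie above that of all genes, with 40 of 49 large and 25 of 28 small subunit genes below 0. The curves of the other sets do so too, with 60 of 82 cytosolic ribosomal protein genes and 27 of 35 complex I genes below 0, against 50.8% of all tested genes.

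The 49 tested MRPL genes had a median log2 change of -0.20 with 40 negative and 20 entirely below control, and the 28 tested MRPS genes had a median of -0.21 with 25 negative and 14 entirely below control. The difference between the medians, large minus small, was 0.003 on the log2 scale, and -0.062 after removal of the GC trend, with medians of -0.22 and -0.16. With CPL replicate 1 also left out, the medians after this removal were -0.203 for large and -0.208 for small subunit genes. Computed from uncorrected values in each CPL library against the control mean, the difference large minus small was -0.01, 0.01 and -0.01, with an SD of 0.012, which spans 0. Sorting the proteins by where they sit in the assembled ribosome, which moves MRPS30 and MRPS18A to the large subunit despite their names and leaves out MRPS36, gave 51 large and 25 small subunit genes with medians of -0.20 and -0.21. Proteins with counterparts in all ribosomes (26 tested) had a median of -0.22 with 13 entirely below control. Those with bacterial counterparts only (19 tested) had -0.20 with 6, and those specific to mitochondria (31 tested) had -0.21 with 14.

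**Figure D3:**
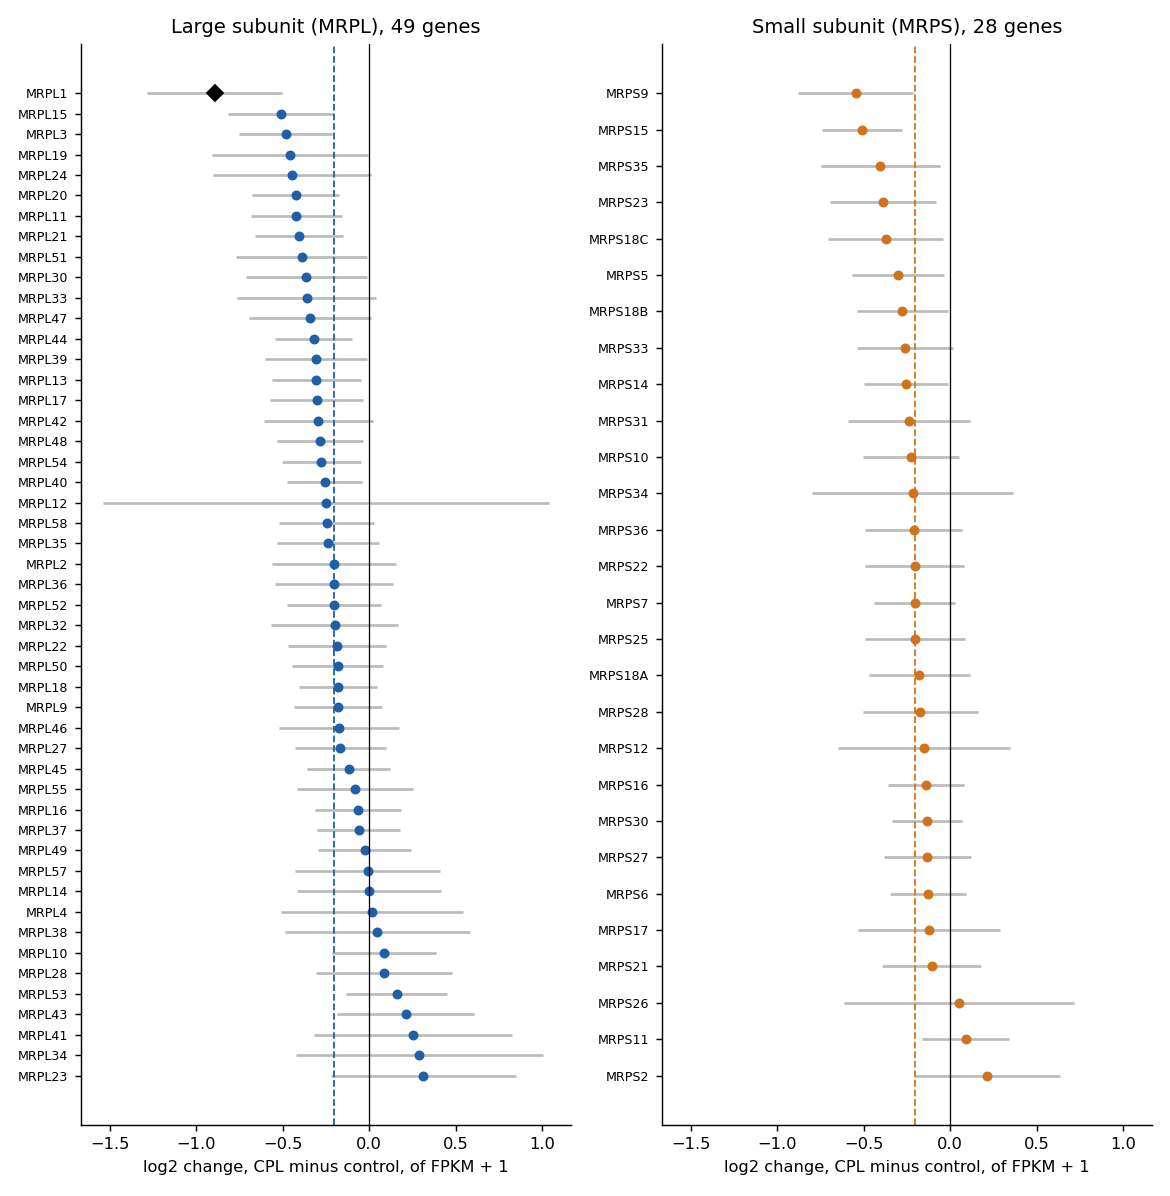
Fitted log2 change (CPL minus control, on the log2(FPKM + 1) scale) of each tested gene with its 95% confidence interval from limma, MRPL genes left and MRPS genes right, with the subunit median dashed and a black diamond for the gene past the threshold. MRPL1 at -0.89 lies farthest to the left and its interval ends at -0.51.

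Of the large subunit, MRPL1 moved most. MRPL1 is the counterpart of bacterial L1, the protein of the stalk beside the exit site of transfer RNA. It lies on the plus strand of chromosome 4 at 77862520 to 77952790 (GRCh38, ENSG00000169288). It was at 52.7, 50.9 and 53.2 FPKM in control replicates 1 to 3 and at 21.0, 33.5 and 30.1 FPKM in CPL replicates 1 to 3, on 631 to 1803 reads. The control libraries lay close together, every CPL library was below them, and CPL replicate 1 was the lowest. MRPL1 fell from 52.3 ± 1.23 to 28.2 ± 6.47 FPKM (n = 3 each), 0.539 times the control mean, with a log2 change of -0.89 (SE 0.17, 95% interval -1.28 to -0.51, limma adjusted p = 0.0488). Without CPL replicate 1 the log2 change was -0.70 (adjusted p = 0.00618), and with the GC trend taken out it was -0.78 (adjusted p = 0.00607). The adjusted p was above 0.05 with a pseudocount of 0.1 (0.0503), with quantile normalization (0.0685), with no filter (0.177) and with the replicate number as a block (0.0746). Leaving out any other library took the adjusted p above 0.05, to 0.0557 without CPL replicate 3, 0.0991 without CPL replicate 2, and 0.195, 0.162 and 0.198 without control replicates 1, 2 and 3.

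MRPL3 was at 68.7, 74.1 and 74.3 FPKM in control cells and at 44.5, 56.7 and 54.0 FPKM in CPL cells. The groups did not overlap, with a log2 change of -0.48 (limma adjusted p = 0.0881). MRPL20, a protein with a bacterial counterpart, was at 34.2, 34.4 and 38.7 FPKM in control cells and 28.2, 27.3 and 23.6 FPKM in CPL cells. Its groups did not overlap either, and its log2 change was -0.43 (limma adjusted p = 0.101). Without CPL replicate 1 both fell, MRPL3 by 0.38 (adjusted p = 0.0341) and MRPL20 by 0.47 (adjusted p = 0.0370) on the log2 scale. MRPL15, the counterpart of bacterial L15, was at 48.2, 56.7 and 60.3 FPKM in control cells and 33.1, 41.8 and 40.1 FPKM in CPL cells. All CPL values were below all control values, with a log2 change of -0.51 (limma adjusted p = 0.101). MRPL19, the counterpart of bacterial L19, was at 20.3 ± 1.59 FPKM in control and 14.9 ± 4.15 FPKM in CPL cells, and its groups overlapped, with a log2 change of -0.46 (limma adjusted p = 0.249). CPL replicate 1 was its lowest library, and without it the log2 change was -0.24 (adjusted p = 0.237). MRPL51 was at 60.0 ± 11.8 FPKM in control and 45.1 ± 5.67 FPKM in CPL cells, with overlapping groups and -0.39 (limma adjusted p = 0.244). It shares 31.3% of its exon bases with NCAPD2, which was at 33.6 FPKM in control and 29.4 FPKM in CPL cells. MRPL20 shares 15.5% of its exon bases with AL391244.1 and RN7SL657P, and AL391244.1 was at 8.78 and 8.97 FPKM.

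Among small subunit genes, MRPS15 and MRPS9 had the largest negative changes. MRPS15, the counterpart of bacterial S15, was at 31.7, 30.5 and 35.3 FPKM in control cells and 23.6, 22.6 and 21.4 FPKM in CPL cells. Its CPL libraries differed from one another by less than its controls did, and the groups were separate, with a log2 change of -0.51 (limma adjusted p = 0.0534). MRPS9, the counterpart of bacterial S9, was at 26.8, 27.4 and 27.5 FPKM in control cells and 14.6, 19.95 and 21.1 FPKM in CPL cells. The groups were separate and CPL replicate 1 was the lowest, with a log2 change of -0.55 (limma adjusted p = 0.107). Without CPL replicate 1 both fell, MRPS15 by 0.54 (adjusted p = 0.0201) and MRPS9 by 0.39 (adjusted p = 0.0266) on the log2 scale. MRPS35, specific to mitochondria, was at 58.8 ± 5.54 FPKM in control and 44.4 ± 7.70 FPKM in CPL cells, with a log2 change of -0.41 (limma adjusted p = 0.197), and -0.26 without CPL replicate 1. MRPS23 was at 13.1, 10.4 and 11.2 FPKM in control cells and 7.46, 8.64 and 9.69 FPKM in CPL cells, again with separate groups, and had -0.39 (limma adjusted p = 0.174). MRPS33 was at 2.86 ± 0.206 FPKM in control and 2.22 ± 0.259 FPKM in CPL cells, with -0.26 (limma adjusted p = 0.282). Smaller differences were found for MRPS10, a counterpart of bacterial S10, with -0.23, and for MRPS17 and MRPS21, with -0.12 and -0.11. Without CPL replicate 1 these became -0.14, -0.09 and -0.17.

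**Figure D4:**
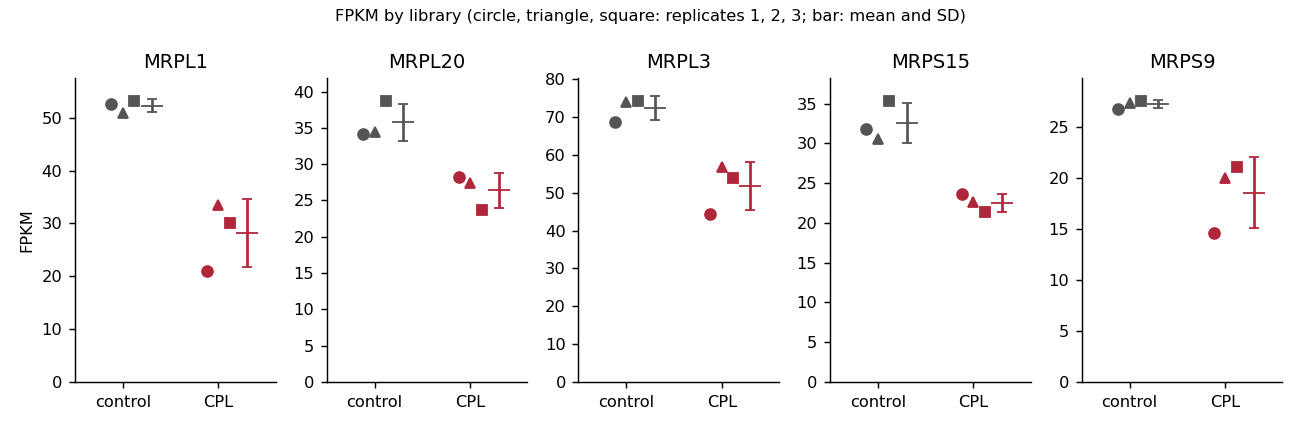
FPKM of MRPL1, MRPL20, MRPL3, MRPS15 and MRPS9 in each library, with circles, triangles and squares for replicates 1, 2 and 3, bars for the mean and SD (n = 3), and a linear axis from 0. The genes were chosen because limma called them lower both with the GC trend removed and without CPL replicate 1. In each of these 5 genes every CPL point lies below every control point, and CPL replicate 1 is the lowest for MRPL1, MRPL3 and MRPS9. That choice favours such separation, which was also found in 34 of the 77 tested genes and in 14.9% of all tested genes.

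The stretch just before the transcription start is shown for the 4 other genes that limma called lower without CPL replicate 1 (adjusted p under 0.05). These 4 were chosen by that threshold alone, and 71 of the 77 tested genes had a negative log2 change in the same fit. MRPL1 is not shown because its promoter window lies inside the gene as annotated by GENCODE. Each runs 5′ to 3′ on the gene's strand, ends before both the RefSeq and the GENCODE 29 start, and comes from the RefSeq promoter table on GRCh38.p14, with capitals marking an ETS motif, CCGGAAGT. The regions are chr1:1407314-1407543 on the minus strand for MRPL20, chr3:131502984-131503221 on the minus strand for MRPL3, chr1:36464438-36464634 on the minus strand for MRPS15 and chr2:105037819-105037982 on the plus strand for MRPS9.
MRPL20: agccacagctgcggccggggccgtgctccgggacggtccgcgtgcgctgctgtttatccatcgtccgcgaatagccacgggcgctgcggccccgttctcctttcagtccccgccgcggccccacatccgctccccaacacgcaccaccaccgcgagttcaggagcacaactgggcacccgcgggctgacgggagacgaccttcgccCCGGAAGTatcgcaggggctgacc
MRPL3: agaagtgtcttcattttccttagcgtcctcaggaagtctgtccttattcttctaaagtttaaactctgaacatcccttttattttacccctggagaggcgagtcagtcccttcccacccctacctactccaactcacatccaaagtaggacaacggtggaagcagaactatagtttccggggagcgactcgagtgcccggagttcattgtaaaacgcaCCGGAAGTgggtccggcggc
MRPS15: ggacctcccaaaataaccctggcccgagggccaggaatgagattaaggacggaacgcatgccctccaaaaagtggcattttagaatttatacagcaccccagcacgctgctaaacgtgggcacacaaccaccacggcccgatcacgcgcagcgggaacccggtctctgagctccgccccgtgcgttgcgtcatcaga
MRPS9: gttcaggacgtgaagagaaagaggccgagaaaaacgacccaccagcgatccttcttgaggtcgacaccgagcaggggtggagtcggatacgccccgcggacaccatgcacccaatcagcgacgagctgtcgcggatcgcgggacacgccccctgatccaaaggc
MRPL20 and MRPL3 hold the ETS motif near the start, and MRPS15 and MRPS9 hold none of the motifs searched.

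The RefSeq table had 85 promoter windows, from 250 bases before to 50 after the start, for 69 of the 78 genes, among 35116 windows in all. Motifs of factors known to act on promoters of nuclear genes for mitochondrial proteins were searched on both strands. The ETS motif CCGGAAGT, read by the GABP factor among others, was in 14 windows (16.5%), against 4.14% of all windows and 8.33% of windows of tested genes. The YY1 motif AAGATGGCG was in 13 (15.3%), against 1.75% and 3.80%. The core of the NRF1 motif, GCGCATGC, was in 6 (7.06%), against 3.05% and 5.11%, and the E-box CACGTG in 9 (10.6%), against 7.26% and 9.53%. At least 1 of these was in 33 windows (38.8%), against 14.7% of all windows and 23.8% of windows of tested genes. No difference in change between genes with and without a motif was tested. The median log2 change was -0.20 in the 12 genes with the ETS motif and -0.20 in those without, and -0.19 in the 12 tested genes with the YY1 motif against -0.21 without. It was -0.24 in the 6 genes with the NRF1 core against -0.20 without, and -0.12 in the 9 with the E-box against -0.21 without.

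GC content divided the genes in CPL replicate 1 and less in the other libraries. The 38 tested genes below the median GC of 47.7% had median log2 changes against the control mean of -0.42, -0.20 and -0.18 in CPL replicates 1, 2 and 3. The 39 at or above it had 0.08, -0.14 and -0.31. Of the low GC genes 38, 37 and 38 of 38 were below the control mean in these libraries, and of the high GC genes 15, 32 and 38 of 39. Across the 77 genes the Spearman correlation of change with GC was 0.72, 0.15 and -0.38 in the 3 libraries, as a description over genes that share each library. After removal of a GC trend from each library these became -0.04, -0.16 and -0.17, and the medians of the high GC genes were -0.18, -0.19 and -0.28 beside -0.16, -0.16 and -0.21 for the low GC genes. The part of GC content in the changes of single genes was not tested beyond this removal.

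**Figure D5:**
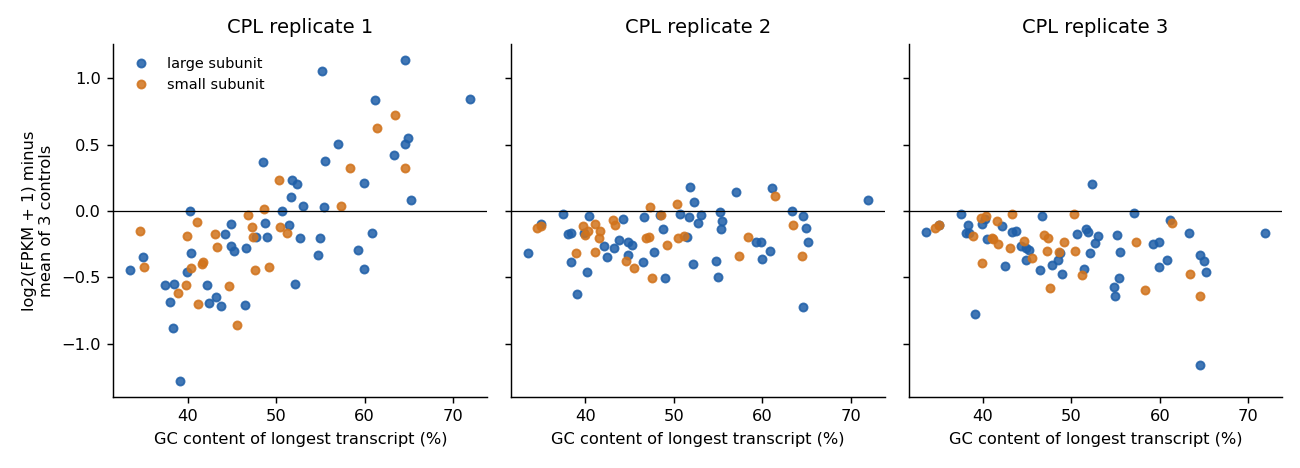
Log2 change of each tested mitochondrial ribosomal protein gene against the control mean, plotted against GC content in percent, with 1 panel per CPL library. Genes rise with GC in CPL replicate 1 (Spearman 0.72), show little slope in CPL replicate 2 (0.15) and decline in CPL replicate 3 (-0.38).

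With the GC trend removed, limma called 12 of the 77 genes lower, against 6.30% of all tested genes, and 0 higher, against 6.99%, and 0 were higher at an unadjusted p under 0.05. In this fit 69 of 77 changes were negative and the median was -0.18. The 12 were MRPL1, MRPL3, MRPL4, MRPL11, MRPL15, MRPL20, MRPL36 and MRPL54 of the large subunit and MRPS9, MRPS15, MRPS18B and MRPS34 of the small subunit. Leaving out CPL replicate 1 from the uncorrected values gave 5 lower, against 2.73% of tested genes. These were MRPL1, MRPL3, MRPL20, MRPS9 and MRPS15, and all 5 were among the 12, though the fits share libraries. With the GC trend removed and CPL replicate 1 left out, 8 of the 12 were still called. MRPL4, MRPL11, MRPL15 and MRPS18B were not. In that fit 552 of all 12752 tested genes were called lower. MRPL11, the counterpart of bacterial L11 at the base of the factor-binding stalk, was at 33.0 ± 3.11 FPKM in control and 24.4 ± 2.03 FPKM in CPL cells, with a log2 change of -0.42 (limma adjusted p = 0.112) before and -0.46 (adjusted p = 0.0372) after the removal. MRPL36, the counterpart of bacterial L36, was at 32.2 ± 1.80 and 28.2 ± 5.53 FPKM, with -0.20 before and -0.47 (limma adjusted p = 0.0206) after it. MRPS34, specific to mitochondria, was at 77.2, 53.8 and 67.6 FPKM in control cells and 82.3, 51.6 and 41.8 FPKM in CPL cells. These groups overlapped, and its log2 change was -0.22 (limma adjusted p = 0.664) before and -0.47 (adjusted p = 0.0287) after the removal. MRPL4 was at 20.4, 18.3 and 21.8 FPKM in control cells and 30.0, 18.4 and 15.3 FPKM in CPL cells, a log2 change of 0.02 before and -0.24 (limma adjusted p = 0.0452) after it. CPL replicate 1 was above all controls for MRPL4, and CPL replicate 3 below all of them.

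The MRPS18 paralogs, related proteins of which MRPS18B and MRPS18C sit in the small subunit and MRPS18A in the large one, can be set side by side. MRPS18B was at 37.8, 36.3 and 37.5 FPKM in control cells and 33.1, 32.6 and 26.4 FPKM in CPL cells, with separate groups and a log2 change of -0.28 (limma adjusted p = 0.236). MRPS18C was at 5.67, 7.02 and 6.59 FPKM in control cells and 3.82, 4.94 and 5.50 FPKM in CPL cells, with separate groups and -0.37 (limma adjusted p = 0.214). MRPS18A was at 17.3, 19.5 and 17.1 FPKM in control cells and 18.4, 14.0 and 15.1 FPKM in CPL cells, and its groups overlapped, with -0.18 (limma adjusted p = 0.466). With the GC trend taken out the log2 changes were -0.30 for MRPS18B (adjusted p = 0.0451, and 0.0819 with the replicate number as a block and 0.0665 without CPL replicate 1), -0.26 for MRPS18C (adjusted p = 0.0923) and -0.30 for MRPS18A (adjusted p = 0.0750). MRPS18A shares 47.0% and MRPS18C 40.2% of their exon bases with a neighbouring gene.

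MRPS30 and MRPS36 carry small subunit names but are now placed elsewhere. MRPS30, which lies in the large subunit, was at 14.5, 14.6 and 14.6 FPKM in control cells and 13.0, 13.2 and 13.3 FPKM in CPL cells. Its groups were separate and its replicates close together, with a log2 change of -0.13 (limma adjusted p = 0.436), and 0.00 (adjusted p = 0.998) with the GC trend taken out. MRPS36, now known as a member of the 2-oxoglutarate dehydrogenase complex, was at 6.96, 7.10 and 7.64 FPKM in control cells and 5.15, 6.63 and 6.63 FPKM in CPL cells, with separate groups and a log2 change of -0.21 (limma adjusted p = 0.373). It became -0.11 without CPL replicate 1 and -0.08 with the GC trend taken out.

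Of the 12 genes with a positive log2 change none passed the test, and in all 12 the value of CPL replicate 1 lay above every control. MRPL23, the counterpart of bacterial L23 at the exit of the tunnel, was at 2.71, 2.32 and 3.09 FPKM in control cells and 5.58, 3.16 and 2.53 FPKM in CPL cells, a log2 change of 0.31 (limma adjusted p = 0.482) that became 0.05 without CPL replicate 1. MRPL34 was at 12.9, 9.92 and 12.8 FPKM in control cells and 25.5, 11.7 and 10.3 FPKM in CPL cells, with 0.29 (limma adjusted p = 0.636) and, without that library, -0.09. In both, CPL replicates 2 and 3 overlapped the control range or lay close to it. MRPL41 was at 17.1, 19.5 and 20.9 FPKM in control cells and 35.2, 20.3 and 16.9 FPKM in CPL cells, 0.25 with all libraries (limma adjusted p = 0.598) and -0.04 without it. MRPS2, the counterpart of bacterial S2, was at 18.1, 18.6 and 19.8 FPKM in control cells and 29.5, 20.4 and 17.6 FPKM in CPL cells, 0.21 with all libraries (limma adjusted p = 0.538) and 0.01 without it. MRPL43, MRPL53 and MRPS11 had log2 changes of 0.21, 0.16 and 0.09 (limma adjusted p between 0.514 and 0.688), and 0.06, 0.14 and 0.02 without CPL replicate 1. MRPL38 had 0.05 with all libraries and -0.18 without CPL replicate 1. MRPS26 was at 31.0, 23.3 and 29.2 FPKM in control cells and 46.2, 25.7 and 19.7 FPKM in CPL cells, with 0.05 and, without CPL replicate 1, -0.29. MRPL12, the counterpart of the bacterial stalk protein L7/L12, had widely spread values, at 12.02, 6.29 and 7.75 FPKM in control cells and 19.7, 4.69 and 3.21 FPKM in CPL cells. Its log2 change was -0.25 with an interval from -1.54 to 1.04 (limma adjusted p = 0.835), and -0.94 (adjusted p = 0.112) without CPL replicate 1. MRPL37, the most abundant, was at 93.1 ± 7.45 FPKM in CPL cells, a log2 change of -0.06 (limma adjusted p = 0.780).

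Other genes of mitochondrial translation and its surroundings were described by lists, each with its median log2 change beside the -0.01 of all tested genes. With all libraries limma called 0 members of these lists higher and 0 lower, and at an unadjusted p under 0.05 it gave 0 higher in each. Over all tested genes 10% were lower at that p and 14.9% were entirely below control, which is the background for the counts below. From each list the genes with the largest positive and the largest negative log2 change are named. Of 5 mitoribosomal proteins with other names the median was -0.15 (-0.32 without CPL replicate 1), with 1 lower at an unadjusted p under 0.05. PTCD3, a small subunit protein, was at 18.6 ± 1.30 FPKM in control and 13.5 ± 2.06 FPKM in CPL cells, with a log2 change of -0.45 (limma adjusted p = 0.135). DAP3, a GTP-binding small subunit protein, was at 48.3 and 54.1 FPKM, with 0.16 (limma adjusted p = 0.442). Of 26 assembly factors the median was -0.15, with 2 lower at an unadjusted p under 0.05 and 7 entirely below control. The RNA helicase DHX30 had 0.32 (limma adjusted p = 0.267) and the ribosomal RNA methyltransferase MRM1 -0.57 (limma adjusted p = 0.255). Without CPL replicate 1 DHX30 had 0.18, and MRM1 fell by 0.87 (limma adjusted p = 0.0113). Of 16 translation factors and regulators the median was -0.19, with 5 lower at that p and 7 entirely below control. Among them LRPPRC, which stabilises mitochondrial messenger RNAs, was at 50.6 ± 1.93 FPKM in control and 34.9 ± 5.74 FPKM in CPL cells, with -0.54 (limma adjusted p = 0.0956), and with the GC trend taken out it fell by 0.45 (adjusted p = 0.0110). MTFMT, which formylates the initiator transfer RNA, had 0.04 (limma adjusted p = 0.882).

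Of 15 genes for replication, transcription and processing of the mitochondrial genome the median was -0.29, with 6 lower at an unadjusted p under 0.05 and 8 entirely below control. This median was -0.18 without CPL replicate 1 and -0.19 with the GC trend taken out. The RNA polymerase POLRMT had 0.16 (limma adjusted p = 0.730) and the RNA-degrading enzyme PNPT1 -0.44 (limma adjusted p = 0.219), and without CPL replicate 1 these were -0.10 and -0.25. Of 7 nuclear regulators of mitochondrial genes the median was -0.06, with 0 lower at that p, and it turned to 0.04 without CPL replicate 1. ESRRA, a nuclear receptor, had a log2 change of 0.51 (limma adjusted p = 0.273), and GABPA, an ETS factor subunit, had -0.21 (limma adjusted p = 0.506), against 0.24 and -0.05 without CPL replicate 1. Of the 15 transcripts of the mitochondrial genome the median was -0.08, with 2 lower at that p, and it turned to 0.08 without CPL replicate 1. MT-ND4 had 0.32 (limma adjusted p = 0.366). MT-ATP8 had -1.31 (limma adjusted p = 0.457), with 56.8 FPKM in CPL replicate 1 against 586 to 987 FPKM in control cells, and -0.10 without that library. Cytosolic ribosomal protein genes (82 tested of 83) had a median of -0.13, with 13 lower at an unadjusted p under 0.05 and 23 (28.0%) entirely below control. Without CPL replicate 1 their median was -0.17, and 80 of the 82 changes (97.6%) were negative, against 51.6% of all tested genes. RPS28 had 0.54 (limma adjusted p = 0.527) and RPS23 -0.84 (limma adjusted p = 0.334), and without CPL replicate 1 these were -0.004 and -0.26. Respiratory complex I genes (35 tested of 37) had a median of -0.14, with 5 lower at that p and 11 (31.4%) entirely below control. Without CPL replicate 1 their median was -0.18, with 33 of 35 negative (94.3%). The mitochondrial ribosomal protein genes then had a median of -0.22, with 71 of 77 negative (92.2%), so a small fall of most genes was shared by these 3 sets. The complex I subunit NDUFS4 was at 16.6 ± 0.62 FPKM in control and 10.02 ± 2.00 FPKM in CPL cells, with a log2 change of -0.69 (limma adjusted p = 0.0668), and with the GC trend taken out it fell by 0.61 (adjusted p = 0.00863). NDUFS7 had 0.16 (limma adjusted p = 0.665), and -0.02 without CPL replicate 1. After this removal limma called 2, 2, 3, 1, 0 and 0 genes lower in the mitochondrial lists in the order given, 2 of the cytosolic ribosomal protein genes and 5 of complex I, and 0 higher in any, where 6.30% of all tested genes were lower and 6.99% higher.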

How the data were processed

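Polyadenylated RNA of 3 control and 3 CPL samples of SET-2 cells was measured. The values are FPKM that the authors deposited, in 1 table of 30735 genes. No header or label names the unit, which was taken from the values: low values times the GENCODE 29 exon length were whole reads within 0.1 of a read for 98.7% to 99.0% of values per library. Library totals recovered in this way ranged from 14647926 to 18239563 reads. On a gene of 1 kb, 3 reads then stand for 0.165 to 0.205 FPKM. The submitters' processing notes list the GRCh38 build, RSEM 1.2.12, HISAT2 2.0.4, Bowtie2 2.2.5 and, last, DESeq2 1.4.5, and which step used each is not stated there. Positions are those of the table, and 77 of the 78 equal GENCODE 29.

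Values were set to log2(FPKM + 1), which understates changes of genes with low values. Genes that reached 1 FPKM in 3 or more libraries entered limma 3.58.1 in R 4.3.3 (trend and robust moderation, group as the only term, two-sided, Benjamini-Hochberg at 0.05 over all 13092 genes). Each library counted as 1 sample, since replicates differed beyond counting noise. The GC trend was removed per library by loess with span 0.5. The fit was also run on simulated reads, with the same scatter for every gene and library and a linear GC trend where one was added. Those settings are simpler than these libraries, so that run does not show how the fit behaves on them. The genes named were those past the threshold, the 4 largest rises and 4 largest falls, 3 highest and 2 lowest levels in each subunit, the MRPS18 paralogs, MRPS30, MRPS36 and MRPL12, and of each related list the largest rise and fall. MRPL20 and the further genes called after removal of the GC trend were chosen after their values were seen. The members, lists, motifs and alternatives were chosen with earlier results of these data known. Tables and figures were made with Python 3.11.15, numpy 2.4.6, pandas 2.3.3 and matplotlib 3.10.9.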

Additional observations from a re-analysis of the deposited data

How the results depend on the processing

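With all libraries 230 genes passed in limma, 1 of them a mitochondrial ribosomal protein gene. No filter gave 25 genes, removal of the GC trend 1738, the replicate block 63, the block with the GC trend removed 1076, and the GC trend removed without CPL replicate 1 gave 1178. Leaving out 1 library gave 21 to 711 genes, the highest without CPL replicate 1 and 196 without CPL replicate 3. Among the mitochondrial ribosomal protein genes, 0 passed with a pseudocount of 0.1, with no filter, with quantile normalization and with the replicate block. With a filter of 5 FPKM 2 passed as lower, where 113 of all 7528 tested genes were lower. With the GC trend removed 12 passed, and also 12 with the block added, not all of them the same genes. Over all tested genes 824 of 13074 were lower with the GC trend removed, and 524 of 13074 with the block added. Among the genes named by the rule, MRPS18B no longer passed with the block, and MRPL19 and MRPS35 did. Further genes also changed. With the GC trend removed without CPL replicate 1, 10 passed as lower, where 552 of all 12752 tested genes were lower. When 1 library was left out, 0 to 5 passed. The 5 were found without CPL replicate 1, where 348 of all 12770 tested genes were lower. The median log2 change of the mitochondrial ribosomal protein genes ran from -0.23 to -0.18 when 1 library was left out. The difference between subunits, large minus small, was -0.033 with a filter of 5 FPKM, -0.062 with the GC trend removed with or without the block, and -0.034 to 0.0033 when 1 library was left out. With the GC trend removed and CPL replicate 1 left out, the medians were -0.203 for large and -0.208 for small subunit genes. The cause of these shifts was not tested.

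Of the 30 named genes, 4 changed sign with the GC trend removed, with and without the block, to log2 changes of -0.14 for MRPL41, -0.21 for MRPL38, -0.18 for MRPS26 and 0.000 for MRPS30. With CPL replicate 1 also left out they were -0.078 for MRPL41, -0.086 for MRPL34, -0.20 for MRPL38 and -0.30 for MRPS26. When 1 library was left out, MRPL12 ran from -0.94 to 0.21, MRPL34 from -0.094 to 0.52, MRPL37 from -0.11 to 0.003, MRPL38 from -0.18 to 0.24, MRPL41 from -0.042 to 0.47 and MRPS26 from -0.29 to 0.31. Control and CPL samples share a number in the deposited column names, and nothing states whether this marks pairs. Deviations of same-numbered samples had correlations of 0.08, 0.09 and -0.17, and control replicate 2 correlated best with CPL replicate 3 (0.22). These correlations cannot decide whether the samples are paired, since each deviation is taken from the mean of few libraries. The main fit therefore ignores a possible pairing, and the replicate block allows for it. With at most 10 reads, MRPS24 gave no comparison.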

Other observations

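A protein-coding gene on the other strand starts within 1000 bases of 29 mitochondrial ribosomal protein genes, and in 16 of these the starts face away from each other. MRPL46 and MRPS11 are such a pair on chromosome 15, with starts 34 bases apart, and so encode proteins of both subunits side by side. MRPL46 was at 3.50 FPKM in control and 3.02 FPKM in CPL cells, with a log2 change of -0.17 (limma adjusted p = 0.544), and MRPS11 at 9.51 and 10.2 FPKM, with 0.09 (limma adjusted p = 0.688). MRPL36 and NDUFS6, a complex I subunit, start 34 bases apart, and NDUFS6 was at 80.2 and 73.5 FPKM, with -0.14 (limma adjusted p = 0.698). MRPL47 and NDUFB5, also of complex I, start 36 bases apart, and NDUFB5 was at 14.3 and 12.1 FPKM, with -0.23 (limma adjusted p = 0.366). MRPL18 and TCP1, a subunit of the cytosolic chaperonin, start 63 bases apart, and TCP1 was at 121 and 98.7 FPKM, with -0.29 (limma adjusted p = 0.209). None of these partner genes passed the test.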
